A study of Mus musculus with 168 samples.

Results

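Crym encodes mu-crystallin, a protein that binds thyroid hormone in the cytosol and is known as a mark of striatal astrocytes. Single cells of the subventricular zone (SVZ), the stem cell niche lining the lateral ventricle of the adult brain, were split by their Crym level, and the other genes of brain regions were compared between both classes. Quiescent cells were taken as SVZ cells in which ribosomal protein genes, a group that rises when stem cells activate, made up under 5% of the summed TPM, the length-corrected share of a gene among all transcripts of a cell; this percent is called R here. Cells were chosen by R and by Crym itself, which is therefore left out of every result. Of 150 cells in the series 133 were SVZ cells, and 50 of one name series and 57 of the other had R below 5. Crym stood at 10 TPM or more in 62 of these (Crym positive) and below 1 TPM in 38 (Crym negative), so that 100 cells were compared. The other 7 lay between 1.05 and 1.51 TPM. The highest negative cell had 0.94 TPM and the lowest positive cell 164 TPM, so no cell fell near the limit of 10 TPM. The highest R below the limit was 4.19 and the lowest above it 5.14.

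All cells came from male C57BL/6 mice, for which the labels name no transgene or treatment. The SVZ cells carry an age of 23 months in their labels and form a pair of name series, ogp (68 cells, 50 with R below 5) and ogp2 (65 cells, 57 with R below 5). They were sorted as CD45-, O4-, CD133+ and GLAST+, a gate that selects stem cells and astrocyte-like cells and removes blood and oligodendrocyte cells, and were then picked by hand for Smart-seq2, which reads whole transcripts of 1 cell. Beside them stand 13 astrocytes of the striatum and 4 of the cortex from mice of 25 months. SVZ of several animals were pooled and no animal is named for any cell, so each class counts as 1 sample and no test was made. Intervals are exact Clopper-Pearson 95% intervals and cover counting error only.

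During development the walls of the telencephalon are divided by transcription factors. Six3, Gsx2 and Meis2 mark the lateral part that forms the striatum, Pax6, Emx2 and Lhx2 the dorsal part that forms the cortex, and Nkx2-1 and Nkx6-2 the ventral part. Stem cells of the adult SVZ keep parts of this code, and their position sets which olfactory bulb neurons they form. Astrocytes also keep such marks of the region in which they arose.

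Genes detected per cell and R were close in both classes, while some markers of cell state differed. A Crym positive cell had a median of 3314 genes at 1 TPM or more (1937 to 5782) and a Crym negative cell 3367 (2068 to 4791), with a median R of 1.66 and 1.83. In 5 columns of the table the values summed to far less than in the others, at 66189 to 309864 TPM, and 3 of these were Crym positive and 0 Crym negative cells; every column was rescaled. Positive cells made up 54% of the low R cells in ogp (interval 39.3% to 68.2%) and 61.4% in ogp2 (47.6% to 74%). Among 21 markers of quiescent stem cells and astrocytes, Slc1a3, the glutamate transporter also called GLAST, averaged 3905 and 3820 TPM, and Aldoc, a glycolytic enzyme of astrocytes, 7548 and 7781 TPM. Of the 21, 7 had a higher mean in positive cells and 14 a lower one, where 49% of all genes compared were higher. Prom1 and Gfap were the 2 that were 4-fold or more lower, against 3.67% of all genes compared. Mki67 and Mcm2, genes of dividing cells, were detected in 0 cells of either class, but they were the only 2 of 16 activation markers so absent. Egfr was in 20 of 62 and 9 of 38 cells and Pcna in 16 and 10. At least 1 of the 16 was in 57 positive and 32 negative cells. The label quiescent therefore rests on R and not on these markers. Prom1, which encodes the CD133 antigen of the sort, was at 1 TPM or more in 0 of 62 positive cells, which allows up to 5.78%, and in 6 of 38 negative cells.

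Markers of other cells were mostly low or shared, though some sums differed between the classes. Summed over the 10 ependymal markers the median was 232 TPM in positive cells (0 to 2255) and 6.71 in negative cells (0 to 1000). Most of that came from Rarres2, which astrocytes can express too, in 38 of 62 and 16 of 38 cells. Foxj1, the master factor of ciliated cells, was in 2 and 1 cells and Ccdc153 in 0. The 15 oligodendrocyte lineage markers summed to medians of 116 TPM (0 to 7768) and 194 TPM (0 to 6753), with Sox10 in 1 cell of each class. The sums over 16 activation markers had medians of 262 TPM (0 to 1309) and 57.5 TPM (0 to 1027), mostly from Cdk4, in 51 of 62 and 30 of 38 cells. The 10 striatal projection neuron markers summed to medians of 294 TPM (0 to 1571) and 164 TPM (0 to 1072). At least 1 of them was in 51 of 62 and 25 of 38 cells, with Ppp1r1b in 48 and 23. Neuroblast, neuron, microglia and choroid plexus markers had median sums of 0 in both classes. Endothelial markers had 1.73 and 2.34 TPM and mural ones 3.63 and 3.785 TPM. What part these differences have in the results below was not tested.

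Lmo1, Six3 and Nkx6-2 were found in a larger share of Crym positive cells, as counted at 1 TPM. Pax6, Otx1 and Chrdl1 were found in a larger share of Crym negative cells. Meis2, Emx2 and Lhx2 differed less in their shares at that limit, but Lhx2 did not stand apart from these genes at 10 TPM and Meis2 differed in direction between the series. Promoters of genes that stood on either side are shown because these genes differed between the Crym classes. A further reason is that homeobox factors such as Lhx2, Nkx6-2 and Emx2 share a short core site. Each is the RefSeq window of 250 bases before to 50 bases after the start of the gene in GRCm38.p6, written 5′ to 3′ on the strand of the gene. Capitals mark every TAAT, or ATTA on the other strand, overlapping matches included.
Lmo1, chr7:109175158-109175457, minus strand: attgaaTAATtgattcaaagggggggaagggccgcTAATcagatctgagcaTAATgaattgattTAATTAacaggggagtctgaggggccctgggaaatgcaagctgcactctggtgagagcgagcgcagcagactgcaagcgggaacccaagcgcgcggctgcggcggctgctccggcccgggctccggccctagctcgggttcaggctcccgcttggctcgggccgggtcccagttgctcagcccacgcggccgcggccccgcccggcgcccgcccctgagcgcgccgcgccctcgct
Six3, chr17:85620584-85620883, plus strand: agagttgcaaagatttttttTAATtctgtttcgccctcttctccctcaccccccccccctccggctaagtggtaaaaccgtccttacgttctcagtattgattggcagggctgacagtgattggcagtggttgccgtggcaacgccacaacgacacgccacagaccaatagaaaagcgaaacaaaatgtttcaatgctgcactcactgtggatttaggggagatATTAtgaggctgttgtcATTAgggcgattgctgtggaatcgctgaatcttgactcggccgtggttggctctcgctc
Nkx6-2, chr7:139582748-139583047, minus strand: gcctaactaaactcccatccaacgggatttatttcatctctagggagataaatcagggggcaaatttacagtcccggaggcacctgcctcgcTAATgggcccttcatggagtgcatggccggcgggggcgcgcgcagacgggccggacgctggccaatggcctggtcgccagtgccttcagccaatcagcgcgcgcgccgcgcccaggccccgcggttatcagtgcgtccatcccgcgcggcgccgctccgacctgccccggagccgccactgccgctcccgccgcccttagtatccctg
Pax6, chr2:105668646-105668945, plus strand: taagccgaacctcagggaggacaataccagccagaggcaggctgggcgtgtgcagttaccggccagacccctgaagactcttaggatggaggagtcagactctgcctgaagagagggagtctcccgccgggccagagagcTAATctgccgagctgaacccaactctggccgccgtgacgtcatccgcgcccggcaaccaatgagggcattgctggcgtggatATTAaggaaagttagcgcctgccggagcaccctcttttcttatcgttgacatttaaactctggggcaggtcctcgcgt
The Lmo1 window held 5 matches, among them the palindrome TAATTA, the Six3 window 3, the Pax6 window 2 and the Nkx6-2 window 1. Among windows not shown, that of Emx2 held 3 matches with the palindrome, that of Meis2 held 2, and each of Lhx2 held 0. Of all 32851 promoter windows given there, 58.0% held at least 1 match, 6.86% held 5 or more and 5.29% held the palindrome. A match describes letters and not a bound site. Lmo1 and Pax6 each have another start in the table, not shown, with 2 matches. Otx1 and Chrdl1 are named only.

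Of 90 genes in 7 regional lists, 35 were detected in no cell of either class and 34 reached a mean of 10 TPM in either class and were compared. A gene that passes only through the class where it is high has to differ, so counts among these 34 describe them and support nothing. Differences are given as log2 ratios, Crym positive over Crym negative, after 1 TPM was added to each class mean. Six3 and Nkx6-2 were 4-fold or more higher in positive cells, against 4.14% of all 8867 genes compared, and 7 were 4-fold or more lower, among them Otx1, Chrdl1, Gfap, Gsx1, Gsx2 and Igfbp2, against 3.67% of all genes. Of those 7 only Otx1, Chrdl1 and Gfap were detected in at least 10 cells. By detection, counted as the share of cells at 1 TPM or more, Six3 was higher by at least 25 percentage points, against 0.496% of all genes, and Otx1 and Pax6 were lower by as much, against 0.169%. These calls hold at 1 TPM: counted at 10 TPM the differences were 18.5 points for Six3, -24.1 for Otx1 and -21.7 for Pax6, all short of 25 points, while that of Lhx2 was 24.7 points and that of Nkx6-2 25.4 points. Against the 17 negative cells that list Crym at exactly 0, Pax6 differed by -15.4 points, and in ogp alone by -19.1 points. The median log2 difference of all genes was -0.02.

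**Figure D1:**
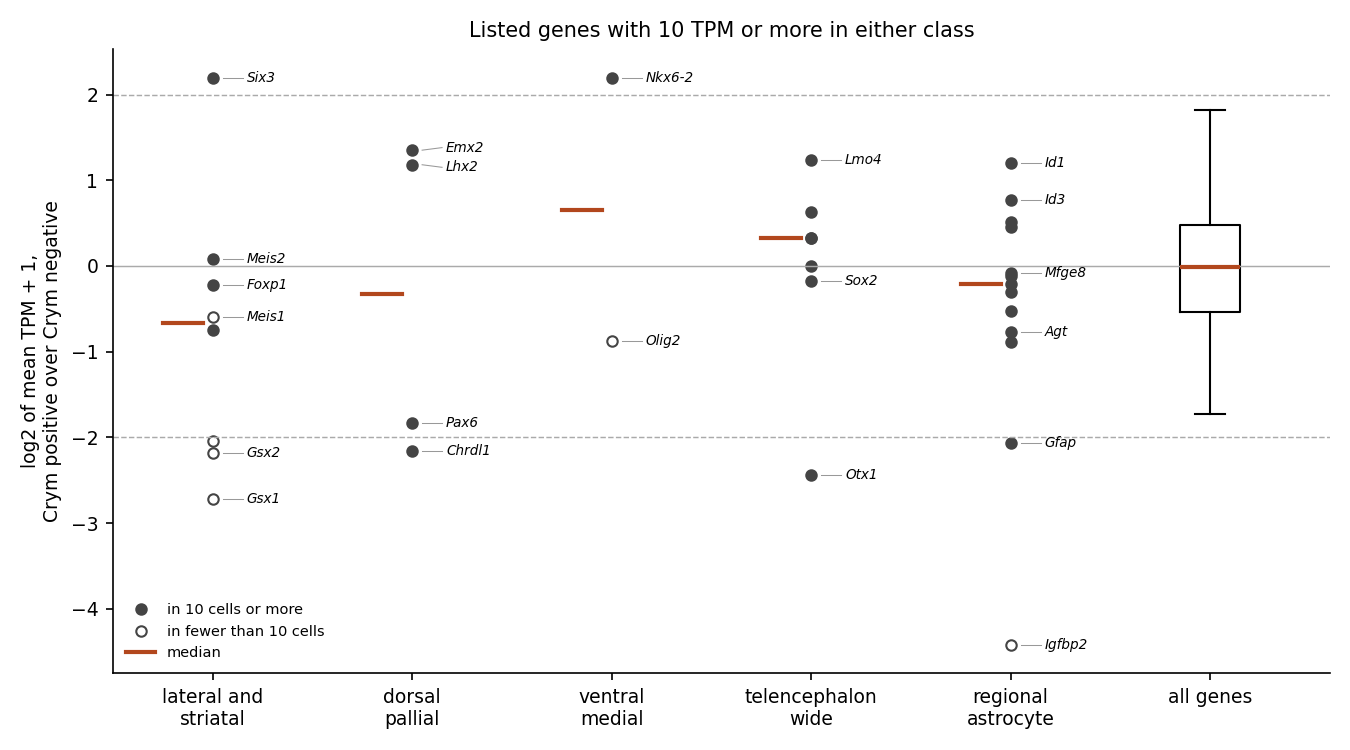
Log2 difference of mean TPM + 1, Crym positive over Crym negative low R SVZ cells, for every listed regional gene that reached 10 TPM in either class. Genes named in the text carry their symbol, open circles are genes found in fewer than 10 cells, short bars are list medians, dashed lines mark 4-fold, and the box shows all 8867 genes with whiskers at the 5th and 95th percentiles; Six3 and Nkx6-2 lie above the upper line and Otx1 and Chrdl1 below the lower one.

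Six3 was the single gene of the lateral wall and striatal list that was 4-fold or 25 points higher in positive cells. It encodes a homeobox factor of the early forebrain that is later needed in striatal neuron precursors. Six3 ranged from 0 to 132 TPM in positive cells and from 0 to 57.9 TPM in negative cells, with a median of 0 in both. It was detected in 23 of 62 positive cells (37.1%, 25.2% to 50.3%) and in 4 of 38 negative cells (10.5%, 2.94% to 24.8%). Levels thus overlapped, and the classes differed in how many cells held the gene. Mean levels were 20.2 and 3.62 TPM, a log2 difference of 2.20. In ogp 11 of 27 and 3 of 20 cells held it, and in ogp2 12 of 35 and 1 of 18.

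Six3os1, a non-coding RNA from the opposite strand that overlaps the first part of the annotated Six3 span on chromosome 17, was singled out after its values were seen. That span begins at 85613608 and Six3os1 ends at 85618398. The promoter window of Six3 printed above rests on another start, begins at 85620584 and lies outside Six3os1. It was in 30 of 62 positive and 4 of 38 negative cells, the second largest difference in detection of all genes over both series at 1 TPM. By that measure it ranked 34 of 9187 genes in ogp alone and 24 of 8875 in ogp2. Mean levels were 46 and 11.3 TPM. Smart-seq2 does not mark the strand, so reads of Six3 and Six3os1 cannot be told apart where they overlap.

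The other members of the lateral list differed from Six3 in that none had a 4-fold difference of the same direction in both series. Meis2, a homeobox factor of the striatal anlage, ranged from 0 to 350 TPM in positive cells (median 10.9) and from 0 to 680 TPM in negative cells (median 0.11). It was detected in 34 of 62 positive cells (54.8%, 41.7% to 67.5%) and 16 of 38 negative cells (42.1%, 26.3% to 59.2%). The mean levels of 61.9 and 58.5 TPM gave a log2 difference of 0.08. The series disagreed in direction, with -0.82 in ogp (12 of 27 against 11 of 20 cells) and 1.30 in ogp2 (22 of 35 against 5 of 18). Foxp1, a factor of striatal neurons, was in 16 of 62 and 6 of 38 cells with a log2 difference of -0.22, which joins opposite values of 3.22 in ogp, where it was 4-fold and 25 points higher, and -2.40 in ogp2. Gsx1, Gsx2 and Meis1, which act in progenitors of this wall, rested on 1 to 4 cells per class. Dlx5, Dlx6, Isl1, Sp8 and Sp9, of neurons born there, were detected in 0 cells. The median of the 8 compared genes was -0.67, and for these same genes it was 1.76 in ogp and -2.07 in ogp2. Without the highest cell of each class it was 0.10, so the list had no stable direction.

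Pax6 and Chrdl1 were the dorsal genes with lower values in positive cells. Pax6 had the wider gap in detection at 1 TPM, in percentage points, and Chrdl1 the larger fold. Pax6, a paired homeobox factor, is required in cortical radial glia and in dorsal SVZ cells that form certain olfactory bulb interneurons. Pax6 ranged from 0 to 265 TPM in positive cells (median 0) and from 0 to 463 TPM in negative cells (median 3.05). It was detected in 16 of 62 positive cells (25.8%, 15.5% to 38.5%) and 20 of 38 negative cells (52.6%, 35.8% to 69%). Where detected, its median was 14.1 TPM in positive and 69.6 TPM in negative cells, so both the share of cells and the level within them were lower in positive cells. The mean levels of 17.4 and 64.4 TPM gave a log2 difference of -1.83, with -1.68 in ogp and -1.90 in ogp2.

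Chrdl1, a secreted antagonist of bone morphogenetic proteins made by cortical astrocytes, showed the same direction. Its levels ran from 0 to 193 TPM in positive and 0 to 427 TPM in negative cells, with a median of 0 in both. It was in 6 of 62 positive cells (9.68%, 3.63% to 19.9%) and 13 of 38 negative cells (34.2%, 19.6% to 51.4%). The log2 difference of the means, 11.6 and 55.6 TPM, was -2.16, with -1.75 in ogp and -2.53 in ogp2. Cells that held Chrdl1 nearly all held Pax6 in the negative class: 12 of 13, while Pax6 was in 20 of 38 cells there. In the positive class 3 of 6 did.

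Emx2 and Lhx2, which specify the cortex in the embryo, had higher means in positive cells, opposite to Pax6. Emx2 was detected in 10 of 62 positive cells (16.1%, 8.02% to 27.7%) and 5 of 38 negative cells (13.2%, 4.41% to 28.1%). Its highest values were 383 TPM and 213 TPM, its median was 0 in both classes, and its mean was 19.2 and 6.93 TPM. The log2 difference of 1.35 rested on few cells: it was 0.31 when negative cells were limited to the 17 that list Crym at exactly 0. Lhx2 ran from 0 to 615 TPM (median 5.44) in positive and from 0 to 208 TPM (median 0.16) in negative cells. It was in 35 of 62 positive cells (56.5%, 43.3% to 69%) and 17 of 38 negative cells (44.7%, 28.6% to 61.7%), and its means of 56.4 and 24.3 TPM gave 1.18. That difference was 0.63 in ogp, with detection in 15 of 27 and 11 of 20 cells, and 3.50 in ogp2, with 20 of 35 and 6 of 18. Counted at 10 TPM the difference in detection was 24.7 points for Lhx2, 15.8 for Meis2 and 6.62 for Emx2, and in ogp2 at 1 TPM it was 35.1 points for Meis2. The intervals of both classes overlapped widely for Meis2, Emx2 and Lhx2, and by under 3 points for Pax6, Chrdl1 and Nkx6-2. Emx1, Eomes, Tbr1 and Neurog2, other genes of the cortical lineage, were in at most 1 cell.

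**Figure D2:**
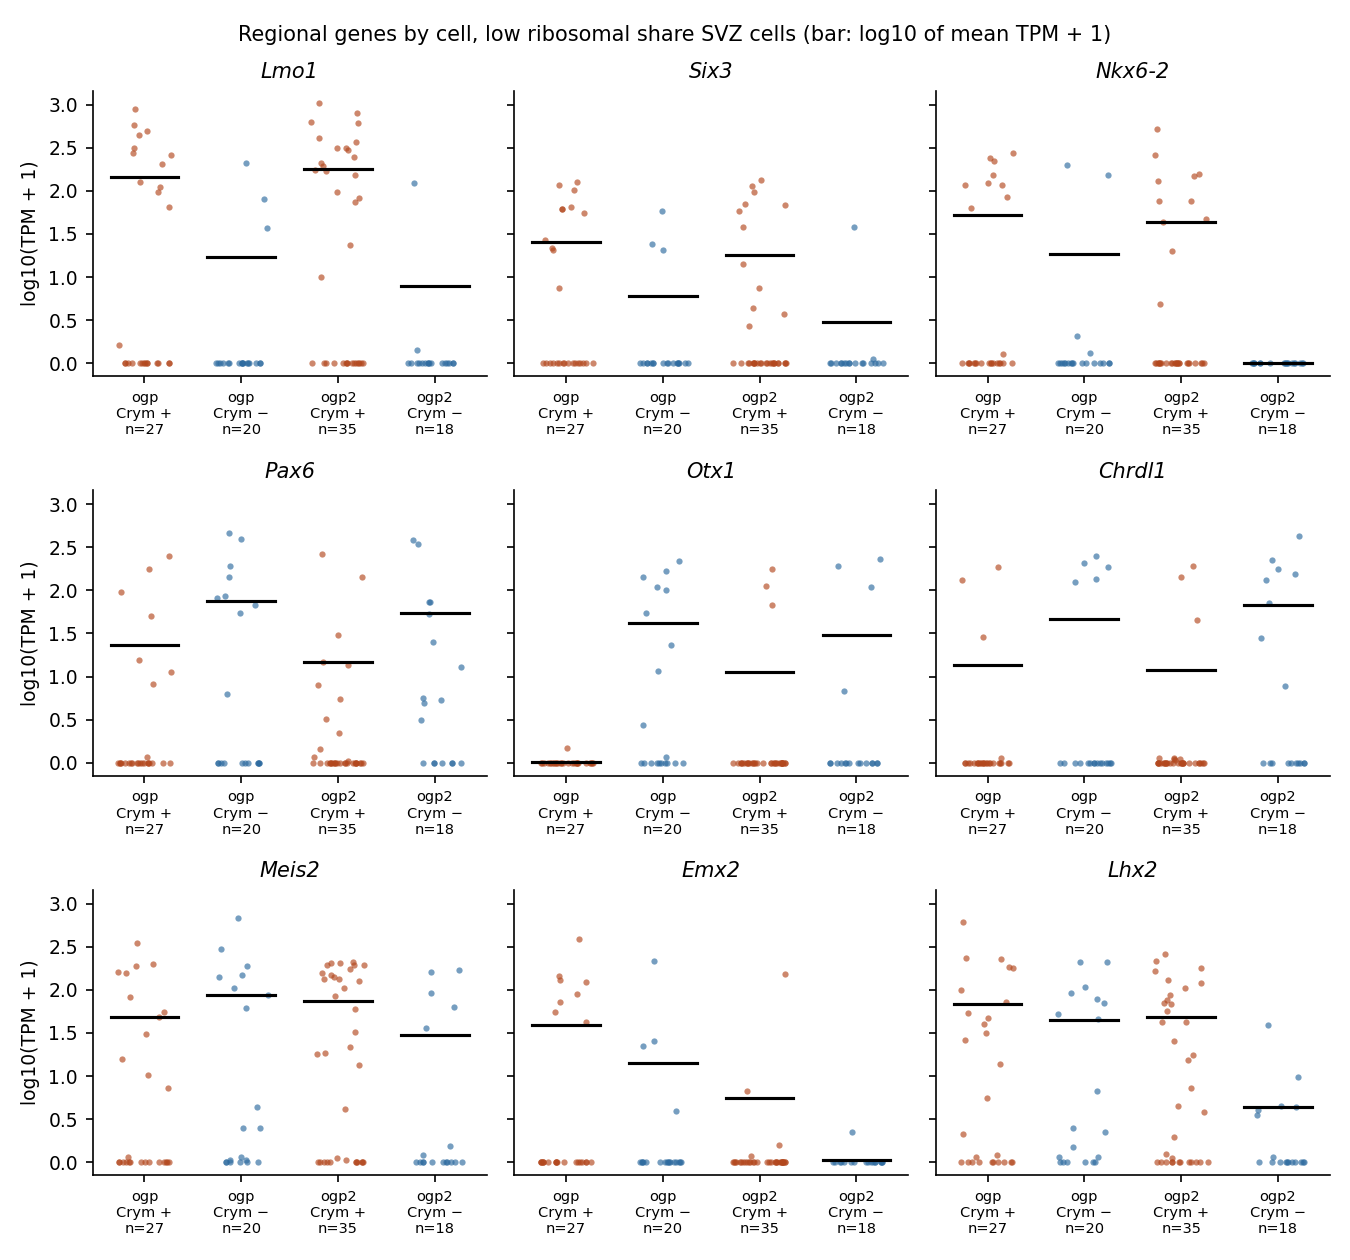
TPM of 9 regional genes in each low R SVZ cell, as log10(TPM + 1), by name series and Crym class; each point is a cell and the bar is log10 of the mean TPM + 1. Lmo1, Six3 and Nkx6-2 have more cells above 0 in the positive columns and Pax6, Otx1 and Chrdl1 in the negative columns of both series, while Meis2 changes sides between ogp and ogp2.

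Among genes shared by the whole telencephalon, Otx1 and Lmo4 stood on opposite sides. Otx1, a homeobox factor of cortical progenitors and deep cortical layers, was in 3 of 62 positive cells (4.84%, 1.01% to 13.5%) and 13 of 38 negative cells (34.2%, 19.6% to 51.4%). Its highest values were 177 and 228 TPM with medians of 0. The means of 5.74 and 35.7 TPM gave -2.44. In ogp 0 of 27 positive cells, which allows up to 12.8%, and 9 of 20 negative cells held it, and in ogp2 3 of 35 and 4 of 18. Lmo4, a LIM-only protein that bridges transcription factors, was in 39 of 62 positive cells (62.9%, 49.7% to 74.8%) and 16 of 38 negative cells (42.1%, 26.3% to 59.2%). Its means of 123 and 51.6 TPM gave 1.24, with 1.14 in ogp and 1.37 in ogp2. Sox2, a stem cell factor, was in 37 of 62 and 20 of 38 cells at means of 54.6 and 61.7 TPM.

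Of the 2 genes compared from the ventral list, Nkx6-2 was 4-fold or more higher in positive cells, though most cells of either class lacked it. It is a homeobox factor of the ventral ventricular wall and, in other cells, of myelinating oligodendrocytes. Nkx6-2 reached 526 TPM in positive and 200 TPM in negative cells, with a median of 0 in both. It was detected in 20 of 62 positive cells (32.3%, 20.9% to 45.3%) and 3 of 38 negative cells (7.89%, 1.66% to 21.4%). The means of 46.1 and 9.31 TPM gave 2.19, with 1.48 in ogp (9 of 27 against 3 of 20 cells). In ogp2 11 of 35 positive cells held it and all 18 negative cells list it at 0, which allows up to 18.5%. In the 20 positive cells with Nkx6-2 the oligodendrocyte markers summed to a median of 97.0 TPM (0 to 847), and in the 42 without it to 164 TPM (0 to 7768). In the negative class the order was the other way, with 562 TPM (207 to 755) in the 3 cells with Nkx6-2 and 167 TPM (0 to 6753) in the 35 without it. Nkx2-2, another ventral homeobox gene that lies on none of the lists and was chosen after its values were seen, was in 28 of 62 and 6 of 38 cells, at means of 29.7 and 15.6 TPM. Nkx2-1, which defines the medial ganglionic eminence, was in 4 and 2 cells, and Lhx6 and Lhx8, made by neurons born there, in 0.

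Septal and non-telencephalic genes were nearly absent. None of the 9 septal and medial wall genes and none of the 16 genes of midbrain, hindbrain and other regions reached 10 TPM in either class. At least 1 septal gene was detected in 6 of 62 positive and 2 of 38 negative cells, and at least 1 of the outside genes in 1 cell of each class.

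Lmo1 had the largest difference in detection of all 8867 genes when both series were pooled and counted at 1 TPM. It encodes a LIM-only cofactor of the developing forebrain, belongs to none of the regional lists, and was named by the rule applied to all genes. Lmo1 ranged from 0 to 1027 TPM in positive cells (median 15.9) and from 0 to 207 TPM in negative cells (median 0). It was in 32 of 62 positive cells (51.6%, 38.6% to 64.5%) and 4 of 38 negative cells (10.5%, 2.94% to 24.8%), a difference of 41.1 percentage points. The means of 162 and 11.7 TPM gave a log2 difference of 3.67. The series showed 12 of 27 against 3 of 20 cells in ogp and 20 of 35 against 1 of 18 in ogp2. By detection Lmo1 ranked 158 of 9187 genes in ogp alone and 2 of 8875 in ogp2. Counted at 10 TPM it ranked 2, and with Crym at exactly 0 it ranked 4 of 9025. Where detected, its median was 252 TPM in positive cells.

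**Figure D3:**
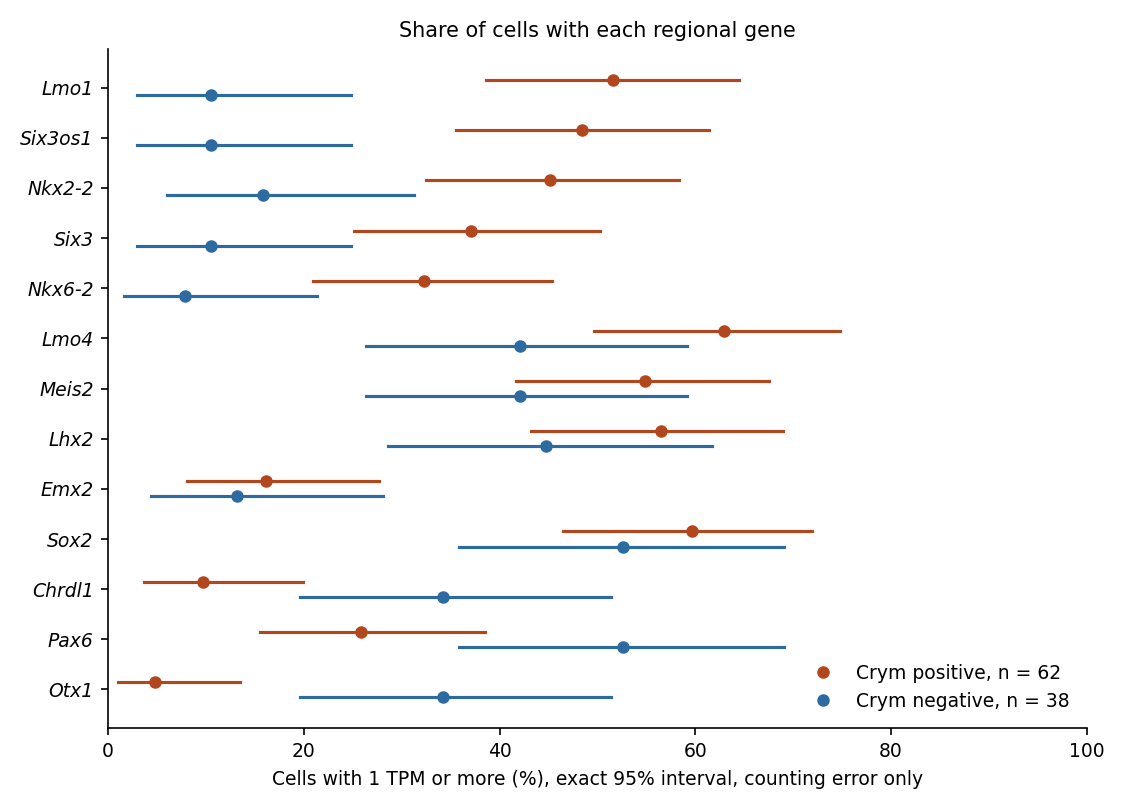
Share of cells in which each regional gene stood at 1 TPM or more, with exact 95% intervals for counting error, in 62 Crym positive and 38 Crym negative low R SVZ cells. The intervals do not overlap for Lmo1, Six3os1, Nkx2-2, Six3 and Otx1, overlap by a small margin for Nkx6-2, Pax6 and Chrdl1, and overlap widely for Meis2, Lhx2, Emx2 and Sox2.

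Genes by which astrocytes of different brain regions differ showed no common direction. Of 14 listed, 13 were compared, with a median log2 difference of -0.21. Of these 4 were higher and 9 lower in positive cells, where 49% of all genes compared were higher. Mfge8, a secreted bridge to dying cells, averaged 5103 and 5395 TPM, and Agt, angiotensinogen, 208 and 357 TPM. Id1 and Id3, targets of BMP signals, were higher in positive cells, Id1 at 97.7 against 41.8 TPM (16 of 62 and 4 of 38 cells) and Id3 by 0.77 on the log2 scale (48 and 23 cells). Gfap, the intermediate filament of reactive and fibrous astrocytes, averaged 60.1 and 255 TPM and was found in 11 of 62 and 12 of 38 cells. Its log2 difference of -2.07 became 0.60 among cells in the middle range of genes detected (31 positive, 18 negative), so its direction rested on which cells were taken. Thbs4, a matrix protein of SVZ stem cells, was in 11 and 15 cells with a difference of -1.44.

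Cells were also counted by whether they held at least 1 gene of a trio. At least 1 of Lmo1, Six3 and Nkx6-2 was detected in 47 of 62 positive cells (75.8%, 63.3% to 85.8%) and in 9 of 38 negative cells (23.7%, 11.4% to 40.2%). At least 1 of Pax6, Otx1 and Chrdl1 was detected in 21 positive cells (33.9%, 22.3% to 47%) and 26 negative cells (68.4%, 51.4% to 82.5%). These trios were put together after their values were seen, from genes that differed in the same direction. The shares therefore describe the cells and support neither a direction nor a wider split than that of single genes. Both series gave the same picture, with 20 of 27 against 7 of 20 cells for the first trio in ogp and 27 of 35 against 2 of 18 in ogp2. Within positive cells Lmo1 and Six3 met in 14 cells, Lmo1 and Nkx6-2 in 13, and Six3 and Nkx6-2 in 7. Otx1 met neither Lmo1 nor Six3 in any positive cell, but it was in only 3 of them. Some 14 positive and 5 negative cells held genes of both trios, and 8 in each class held none.

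Read in the series apart, single genes were less certain than the pooled values make them look. In ogp 5 of 34 regional genes compared were 4-fold or more higher, against 11.1% of all 9187 genes, and 2 lower, against 8.38%. In ogp2 3 of 34 were higher, against 10.2% of all 8875 genes, and 7 lower, against 9.7%. Six3 was the single regional gene 4-fold higher in both. Over the 7764 genes compared in both series, 130 were 4-fold higher in both, 19.5% of the 666 in ogp and 19.1% of the 681 in ogp2, beside 8.77% of all these genes that were 4-fold higher in ogp2, while 117 of the 666 were 4-fold lower in ogp2. For lower genes 62 were shared, 14.2% of the 437 in ogp and 12.4% of the 498 in ogp2, beside 6.41% of all these genes that were 4-fold lower in ogp2, and 74 of the 437 went the other way. Nearly as many genes at this fold went the other way as kept their direction among the higher ones, and more did among the lower ones. Nkx6-2, Six3, Pax6, Otx1, Emx2 and Lhx2 had the same direction in both. So did Lmo1 and Chrdl1, but the rule over all genes that named them asks for it.

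**Figure D4:**
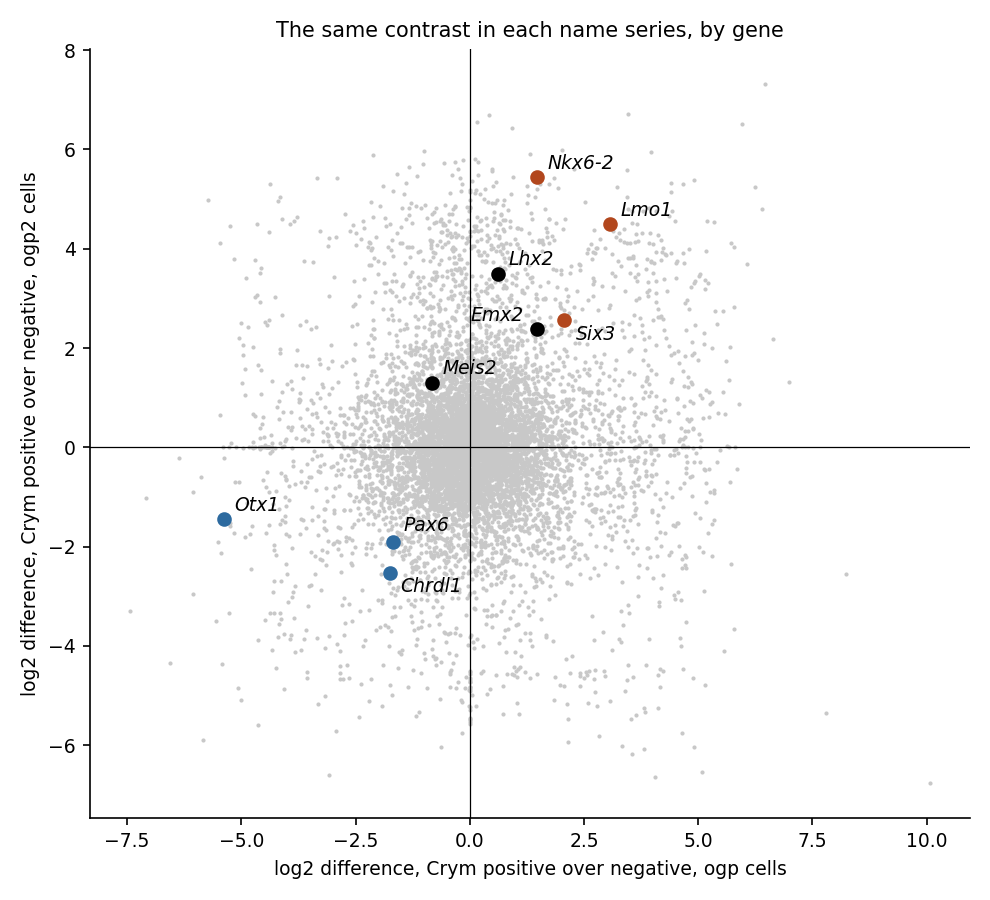
Log2 difference of mean TPM + 1, Crym positive over Crym negative, in ogp cells (horizontal) and ogp2 cells (vertical) for each of the 8867 genes compared over both series, as grey points. Lmo1, Six3, Nkx6-2, Emx2 and Lhx2 lie in the upper right, Pax6, Otx1 and Chrdl1 in the lower left, and Meis2 in the upper left.

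By the rule over all genes 8 genes were named as higher in positive cells and 11 as lower. Beside Lmo1, the higher ones were Mrpl15, a protein of the mitochondrial ribosome (75.9 against 7.26 TPM, 26 of 62 and 6 of 38 cells), Dido1 (28 and 7 cells), Rpe65, a retinoid isomerase (21 and 2 cells), St8sia5, a sialyltransferase (19 and 3 cells), Phf5a, a splicing factor (23 and 4 cells), Rnd2, a small GTPase (22 and 4 cells), and Tango2 (50 and 29 cells). The lower ones, beside Chrdl1 and Gfap, were Utp23, Xaf1, Zfp959, Slmap, Rfc2, Zfp968, Mknk1, Orc5 and Sgpl1. Sgpl1, which degrades sphingosine 1-phosphate, was in 13 of 62 positive and 21 of 38 negative cells at means of 16.2 and 68.3 TPM. Chrdl1 is thus the single listed regional transcript other than Gfap that this rule also named, and Lmo1 the single further gene among them with a role in forebrain patterning.

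Astrocytes of the striatum and cortex and SVZ cells with R of 5 or more did not enter either class. Of the 13 striatal astrocytes 8 had Crym at 10 TPM or more and 5 below 1 TPM. With so few cells 23.8% of 8190 genes were 4-fold or more higher in the Crym positive ones and 18.5% lower, beside 6 and 4 of the 31 regional genes compared. Pax6 was in 1 of 8 positive cells, at 24.6 TPM, and in 4 of 5 negative cells, at 11, 39.3, 74.8 and 146 TPM. Otx1 was listed at 0 in all 8 positive cells and stood at 21.5 and 217 TPM in 2 of 5 negative cells. Nkx6-2 stood at 152 and 295 TPM in 2 of 8 positive cells and was listed at 0 in all 5 negative cells. These 3 genes had the direction they had in the SVZ. Chrdl1 did not: it was in 4 of 8 positive cells, between 70.4 and 150 TPM, and listed at 0 in all 5 negative cells. Lmo1 was in 4 of 8 and 2 of 5 cells at means of 49.3 and 70.1 TPM, and Six3 in 3 and 2 cells at 26.4 and 18.2 TPM, with no split. Lhx2 was in 2 of 8 positive and 4 of 5 negative cells, against its direction in the SVZ, and Meis2 in 4 and 1 and Emx2 in 4 and 1.

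None of the 4 cortical astrocytes reached 1 TPM of Crym, and none held Lmo1, Six3, Six3os1 or Nkx6-2, each listed at 0 in all 4. Chrdl1 was in all 4, at 25.4, 332, 389 and 513 TPM. Otx1 was in 3 of 4, with values of 36.4, 90.6 and 157 TPM, and Pax6 in 2 of 4, at 94.8 and 178 TPM. The 3 genes with a larger share in Crym negative SVZ cells were thus each detected in the cortical cells. The 3 with a larger share in Crym positive SVZ cells were not. Emx2 was in all 4 cells at a mean of 108 TPM and Lhx2 in 3 of 4 at a mean of 233 TPM, above their means of 6.93 and 24.3 TPM in Crym negative SVZ cells. With 4 cells a gene listed at 0 in each can still be present in up to 60.2% of such cells.

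SVZ cells with R of 5 or more had 4 Crym positive and 20 Crym negative members and more genes per cell, with medians of 6650 and 5796. At least 1 of Lmo1, Six3 and Nkx6-2 was in 3 of 4 and 8 of 20 of them, and at least 1 of Pax6, Otx1 and Chrdl1 in 4 of 4 and 16 of 20. The 7 low R cells with Crym between 1 and 10 TPM held the first trio in 3 cells and the second in 6. Those 7 cells had a median of 2782 genes. Whether the shares move with the number of genes detected was not tested, and they were not compared between these groups.

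**Figure D5:**
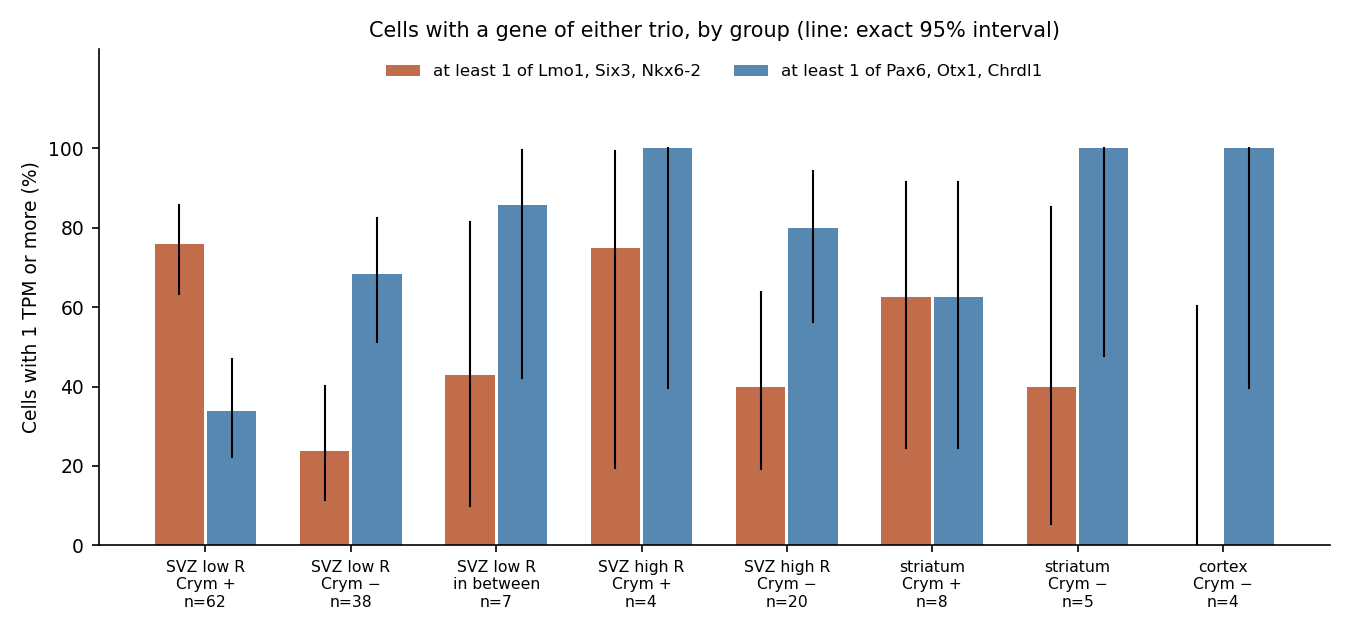
Share of cells with at least 1 of Lmo1, Six3 and Nkx6-2, or at least 1 of Pax6, Otx1 and Chrdl1, at 1 TPM or more, in each group of cells; lines are exact 95% intervals. The first trio is in 75.8% of Crym positive and 23.7% of Crym negative low R SVZ cells and in 0 of 4 cortical astrocytes.

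Genes that tell striatal from cortical astrocytes did not follow Crym as a set. Of 215 genes at least 4-fold higher in the striatum, with 50 TPM or more and detection in at least 50% of striatal cells, 214 were compared between the SVZ classes. Their median log2 difference was 0.02, and 108 were higher in Crym positive cells and the others lower. For the 417 compared genes higher in the cortex the median was -0.03, with 204 higher and 213 lower. Both lie beside the median of -0.02 of all genes. Cortex genes rest on 4 cells.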

How the data were processed

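Smart-seq2 values of 150 single cells were analysed; 18 libraries of cell populations were not used here. The deposited table gives TPM per gene identifier, made by the authors with STAR 2.4.0g1 and RSEM 1.2.18 on mm10, per the submitters' processing notes. TPM keeps no read counts, so the depth behind each value is unknown. Of 43309 identifiers 42425 carry a symbol. Where identifiers shared a symbol only the one with the highest mean TPM was kept, which left 42405 symbols. Each cell was rescaled to the same sum over all identifiers.

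R is the percent of TPM in 89 ribosomal protein genes. Genes with a mean of 10 TPM or more in either class were compared as log2((mean + 1)/(mean + 1)), so that the pseudocount of 1 TPM understates differences of low genes. Detection means 1 TPM or more. Shares have Clopper-Pearson 95% intervals (scipy 1.17.1, with python 3.11.15, numpy 2.4.6 and pandas 2.3.3). No test was made, since no animal is named and cells are not replicates. The 25-point limit on detection, the trios, Six3os1, Nkx2-2, Tmem159 and Uros were chosen after the data were seen.

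Named were Meis2, Emx2 and Lhx2, regional genes compared, up to 4 genes with the widest difference at 20 TPM or more of each other list, and up to 15 genes per direction of all genes, at 50 TPM or more, in 30% or more of cells of the higher class, 4-fold over both series and 2-fold in each. Members and lists were chosen with earlier results of these data known. Scripts were tested on simulated data. Alternatives were other pseudocounts, filters, scalings, limits on R and Crym, and each series alone. Promoters are from RefSeq. Some genes that the rule names are not reported here.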

Additional observations from a re-analysis of the deposited data

Results flagged for a closer look

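Among 27 pairs of a regional gene and a group of 4 to 10 astrocytes, 9 had a cell far from the others. Chance alone marks about 1 in 20 groups of such size, and most other cells of these groups were listed at 0, where any detected cell stands apart. Emx2 in Crym positive striatal astrocytes was the exception, with 3 of 8 cells at 0. In Crym negative striatal astrocytes the far cells had 155 TPM of Meis2, 3.24 TPM of Emx2, 273 TPM of Lmo1, 82.5 TPM of Six3 and 217 TPM of Otx1. In Crym positive striatal astrocytes they had 74 TPM of Emx2, 159 TPM of Six3 and 24.6 TPM of Pax6. In cortical astrocytes 1 cell had 10.4 TPM of Meis2. The means given for Six3 in both striatal groups and for Lmo1 in Crym negative striatal astrocytes rest largely on those cells.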

How the results depend on the processing

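No paired analysis was possible because no label ties a cell of one class to a cell of the other. Over all alternatives run the log2 difference of Lmo1 lay between 2.98 and 5.70, of Six3 between 1.15 and 2.62, of Pax6 between -2.36 and -1.13, of Chrdl1 between -4.10 and -1.60 and of Meis2 between -0.82 and 1.30. That of Nkx6-2 was 1.37 or more and that of Otx1 -1.45 or lower; the far ends are not given, since a class in 1 series had no cell with the gene. The median of the lateral list, -0.67, was -0.042 with no filter, 1.76 for the same genes in ogp (-0.82 for the 5 that pass the filter there), -2.07 in ogp2 and 0.10 without the highest cell of each class. The dorsal median, -0.32, was -1.83 at 10 TPM in both classes or 50 TPM in either and -1.90 in ogp2 for the 3 genes that pass the filter there, but 0.24 in ogp2 for the same 4 genes, and the telencephalon median, 0.32, was -0.34 in ogp2. The ventral median, 0.66, was -0.88 at 10 TPM in both classes, -0.25 in ogp2 and -0.90 at R below 3. The 367 genes 4-fold higher became 33 with a pseudocount of 10 TPM, 28 with means of logs, 20 at 10 TPM in both classes, 1025 with no filter, 37 at 50 TPM, 1018 in ogp, 909 in ogp2, 928 within the middle range of genes detected and 927 with Crym at exactly 0. In the same order the 325 lower ones became 23, 13, 12, 749, 28, 770, 861, 771 and 563, and 170 without the highest cell. The 44 genes higher by 25 points became 226 in ogp, 212 in ogp2 and 131 with Crym at exactly 0, and the 15 lower ones 164, 92 and 170. Of ogp genes lower at 2-fold, 23.6% were also lower in ogp2, beside 17.2% of all genes, while 23.5% went the other way. Directions turned in ogp2 for the immediate early list (-1.76), Fos (-6.76), Junb (-2.55), Ifit3 (0.13) and Thra (0.17). They turned in ogp for Gsx1 (1.47), Gsx2 (2.59), Meis1 (2.63) and Olig2 (2.15), with Crym at exactly 0 for Gsx1 (0.81) and Olig2 (4.21), and within the middle range for Gfap (0.60), Gsx2 (2.74), Id1 (-0.10) and Thrsp (0.093). The cause was not tested.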

Other observations

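Thyroid hormone genes, considered because mu-crystallin binds that hormone, had a median log2 difference of -0.41, with -0.56 in ogp and 0.006 in ogp2. Of 15 listed genes 9 were compared, with 2 higher and 7 lower, where 49% of all genes compared were higher. Dio2, the enzyme that activates thyroid hormone, was in 17 of 62 and 17 of 38 cells at means of 15.9 and 43.1 TPM, with -1.14 in ogp and -1.59 in ogp2. Thrsp, a hormone-responsive lipid gene, was in 23 and 17 cells with -1.84. Slco1c1, a hormone transporter, averaged 418 and 321 TPM. Of the BMP and Id genes 9 of 10 were higher, beside the same 49% of all genes, but most lay near 0, with a median of 0.28. Bmp7 was at 0.03 and Id4 at 0.12, and Id2 averaged 1738 and 1131 TPM, with 0.07 in ogp and 0.87 in ogp2. Lfng, which modifies Notch receptors, was in 59 of 62 and 31 of 38 cells with 0.95, in the same direction in both series.

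Interferon genes had a median of -1.25, with 3 of 17 higher and 14 lower, where 49% of all genes compared were higher. Their median was -1.72 in ogp but 0.00 in ogp2. Immediate early genes had a median of 2.03, with Fos in 12 of 62 and 6 of 38 cells and opposite directions in both series.

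Tmem159, which lies 65.4 kb from Crym on chromosome 7, was in 17 of 62 Crym positive and 0 of 38 Crym negative cells, at means of 78.1 and 0.009 TPM. Of all genes only Uros, an enzyme of heme synthesis, was also detected in 17 or more positive and 0 negative cells.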
